A study of Homo sapiens with 6 samples.

Results

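The genes described here are 53 markers of lung alveolar and airway differentiation, read on the exon arrays of one lung adenocarcinoma cell line grown in 2D and in 3D. A gene was taken by its annotated symbol. Of the 53 genes, 45 had a row of the expression table to themselves, 3 had only a row shared with another gene, and 5 had no row annotated to them in the table used here and were not analysed here. The table holds 22011 rows, and 14232 genes have a row of their own. No member had several rows of its own, and 6 rows shared by a member and other genes are given separately. The list holds the transcription factors of the lung lineage and markers of alveolar type 2, alveolar type 1, secretory airway, ciliated and basal cells.

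HCC827, an established cell line from a human lung adenocarcinoma, carries an activating deletion in EGFR, the receptor of the epidermal growth factor. Its total RNA was measured on Affymetrix Human Exon 1.0 ST arrays, 3 of cells on uncoated plastic (2D) and 3 of cells that the treatment notes of the samples describe as spheroids from hanging drops placed in Matrigel (3D). Both groups grew in serum-containing medium, no drug is named for either, and the study's methods describe the embedding matrix as Matrigel with collagen type I. All cells come from 1 line, and nothing in the labels states that replicates came from separate cultures, so that each p-value reflects the spread among these arrays alone, which may be technical. The values are log2 signals after RMA, the background correction, normalization and summary used for such arrays, and a difference of 1 is a 2-fold change of signal. The 6 arrays ran from 1.60 to 13.59 with a median of 6.26. Pearson's r over all rows, which are not independent, was 0.980 to 0.987 within 2D, 0.956 to 0.974 within 3D and 0.943 to 0.975 across the groups. On the first principal component, which held 43.1% of the variance, 3D replicate 2 stood farthest from the 2D arrays and 3D replicate 3 lay nearest to them.

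The distal lung is lined by flat alveolar type 1 cells, which carry gas exchange, and by cuboidal alveolar type 2 cells, which make surfactant in lamellar bodies and renew both types. The conducting airways hold club and goblet cells that secrete protective proteins, ciliated cells that move mucus, and basal cells that renew them. NKX2-1 sets the lung lineage together with forkhead and GATA factors, and lung adenocarcinomas often keep the expression of NKX2-1, surfactant proteins and the aspartic protease napsin A.

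Promoter sequence was available from RefSeq (build GRCh38.p14) for 34 of the 48 members with any row, as the 250 bases before and 50 bases after the start of each gene. The 3 below were chosen after the values were seen. BPIFA1 had the largest difference among the members with a promoter in this set, and SLC34A2 and NAPSA had the largest differences of the alveolar type 2 genes. BPIFA1 encodes a secreted airway protein, SLC34A2 the phosphate transporter of alveolar type 2 cells and NAPSA the protease napsin A. Capitals mark the letters of 5 motifs that were searched on both strands. The letters taken for FOXA factors were TGTTTAC and, as an alternative, TATTTAC. Those taken for NKX2-1 were CAAGTG, those for C/EBP factors TTGCNNAA with N for any base, those for ETS factors GGAAG, and those for GATA factors were AGATAA. Each sequence runs 5′ to 3′ on the strand of the gene.
BPIFA1, chr20:33235746-33236045, plus strand: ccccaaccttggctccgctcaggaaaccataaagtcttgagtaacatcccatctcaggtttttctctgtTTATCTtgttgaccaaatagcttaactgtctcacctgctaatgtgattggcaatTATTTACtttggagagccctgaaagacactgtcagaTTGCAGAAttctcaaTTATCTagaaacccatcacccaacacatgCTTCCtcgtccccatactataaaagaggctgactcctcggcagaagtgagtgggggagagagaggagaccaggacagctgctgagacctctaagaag
SLC34A2, chr4:25655601-25655900, plus strand: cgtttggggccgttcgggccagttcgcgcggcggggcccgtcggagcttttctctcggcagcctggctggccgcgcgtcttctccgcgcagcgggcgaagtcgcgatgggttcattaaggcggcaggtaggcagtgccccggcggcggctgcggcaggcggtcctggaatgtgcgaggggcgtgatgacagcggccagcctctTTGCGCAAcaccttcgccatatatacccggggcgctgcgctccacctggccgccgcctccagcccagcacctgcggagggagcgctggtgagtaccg
NAPSA, chr19:50369253-50369552, minus strand: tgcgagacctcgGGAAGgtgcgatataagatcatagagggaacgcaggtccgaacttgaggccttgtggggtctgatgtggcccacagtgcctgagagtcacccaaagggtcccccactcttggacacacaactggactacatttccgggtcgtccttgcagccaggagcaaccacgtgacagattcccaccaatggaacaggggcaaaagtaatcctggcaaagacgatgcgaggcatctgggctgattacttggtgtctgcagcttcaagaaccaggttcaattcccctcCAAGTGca
In the BPIFA1 window the FOXA letters TATTTAC began at base -127 from the start of the gene and the C/EBP letters TTGCAGAA at -91, between a pair of reversed GATA matches at -181 and -76. A reversed ETS match followed at -47. The SLC34A2 window held 1 motif, the C/EBP letters TTGCGCAA at -47, which read the same on both strands. The NAPSA window held an ETS match at -238 and the NKX2-1 letters CAAGTG at 43 bases into the gene. No match in these windows overlapped a match of another motif. Over the 34 promoters, FOXA letters were found in 6 (17.6%) against 6.05% of all 27305 promoters, NKX2-1 letters in 8 (23.5%) against 11.5% and C/EBP letters in 8 (23.5%) against 10.6%. ETS letters were found in 18 (52.9%) against 71.9%, and GATA letters in 3 (8.82%) against 10.5%. The windows of AQP3 and SFTPB held no match of any of the 5 motifs. The FOXA letters were in the windows of BPIFA1, BPIFB1, HOPX, ID2, SPDEF and TEKT1. A match of letters is a description of the window and does not show that a factor binds there.

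Across the 45 genes with a row of their own, 1 rose and 1 fell in 3D past limma's test with an adjusted p under 0.05. VSIG1, a junctional adhesion protein of gastric-type epithelium, rose, and GPRC5A, a receptor-like protein abundant in lung epithelium, fell. The other 43 were not called. Of all 22011 rows, 0.145% were called higher and 0.236% lower. Before adjustment, 12 of the 45 were higher and 1 was lower with p under 0.05, against 7.17% and 7.94% of all rows. The 3D arrays lay wholly above the 2D arrays for 14 members (31.1%) and wholly below them for 1 (2.22%). The shares were 12.7% and 10.0% of all rows, and 14.3% and 9.75% of all genes with a row of their own. The difference was above 0 for 38 members and below 0 for 7, and its median was 0.19, beside 0.071 over all 14232 genes, of which 59.6% lay above 0. Most differences were small. They were under 0.5 in size for 36 members (80.0%, against 87.8% of all genes) and at least 1 for 4 members (8.89%, against 1.45% of all genes). The 4 were VSIG1, GPRC5A, BPIFA1 and AQP3. Dim rows, those with a mean signal under the 40th percentile of all rows (5.87), tended upwards in the whole table, with a median difference of 0.11 against 0.034 for the brighter genes. Among the members, 17 were dim with a median of 0.19, and the 28 brighter ones had a median of 0.18.

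**Figure D1:**
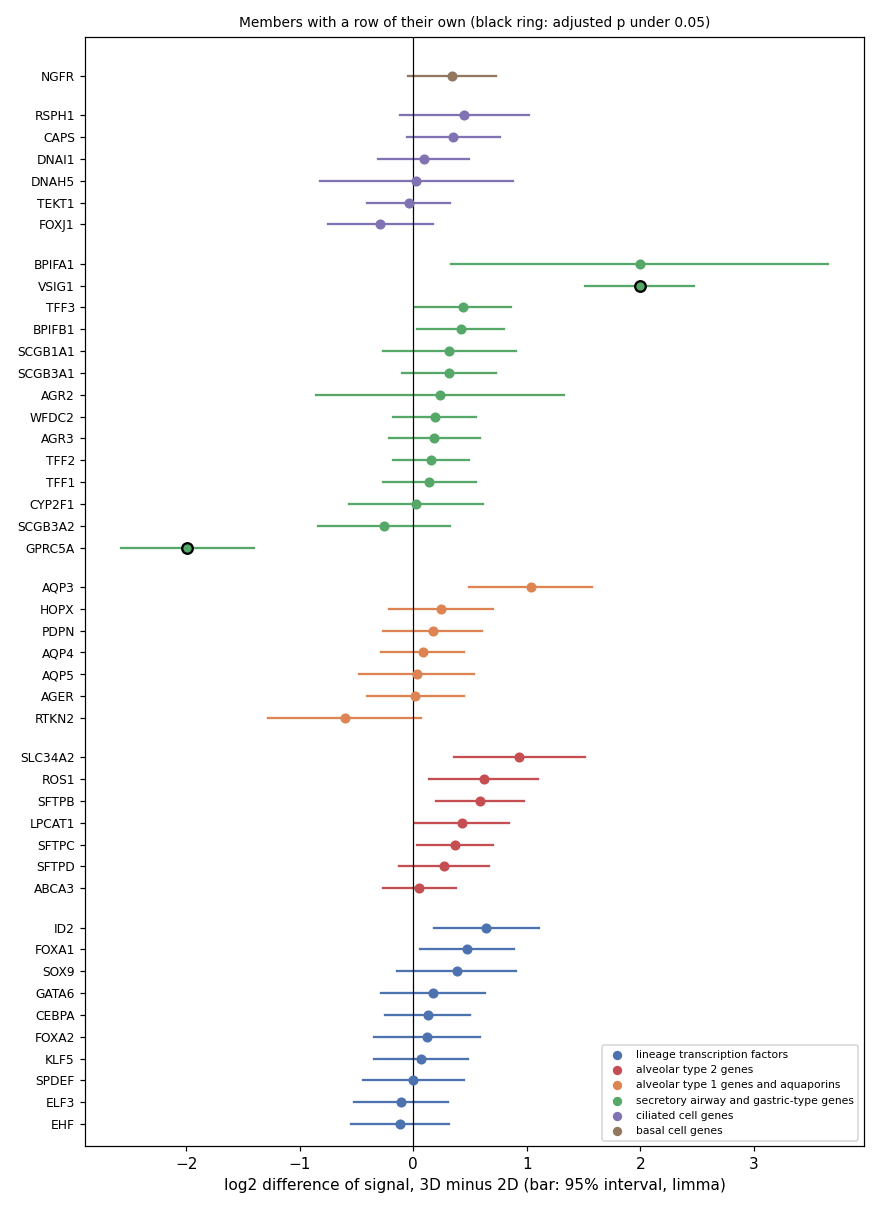
Difference of log2 signal, 3D minus 2D, on the x axis for each of the 45 members with a row of its own (y axis, grouped by role), with the 95% interval of limma as a bar and a black ring where the adjusted p was under 0.05. VSIG1 at 1.99 and GPRC5A at -1.99 carry a ring, and all 7 alveolar type 2 genes lie to the right of 0.

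In bulk RNA a smaller number of cells of a kind and less RNA per cell cannot be told apart, and this holds for each gene below. Signals are given in the order of replicates 1, 2 and 3. VSIG1 had log2 signals of 7.32, 6.86 and 7.17 in 2D and 8.79, 9.39 and 9.16 in 3D. The lowest 3D array was 1.47 above the highest 2D array. The mean difference was 1.99 (SE 0.21, n = 3 per group), a 3.98-fold higher signal, with an adjusted p of 0.0174 from limma. GPRC5A had signals of 10.43, 10.35 and 10.55 in 2D and 8.11, 9.03 and 8.22 in 3D, so that the highest 3D array stayed 1.32 below the lowest 2D array. It fell by 1.99 on the log2 scale (SE 0.25, n = 3 per group), a 3.98-fold lower signal, with an adjusted p of 0.0303 from limma. GPRC5A is induced by retinoic acid and acts as a tumour suppressor in the mouse lung. Both calls depended on single arrays. The adjusted p of VSIG1 was 0.123, 0.0783 and 0.114 without 2D replicates 1, 2 and 3 and 0.0535 without 3D replicate 1. That of GPRC5A was 0.167, 0.108 and 0.151 without the 2D replicates, 0.0911 without 3D replicate 1 and 0.0513 without 3D replicate 3. Without any one of the 2D arrays limma called 0 of all rows. The difference itself stayed between 1.85 and 2.16 for VSIG1 and between -2.28 and -1.82 for GPRC5A.

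**Figure D2:**
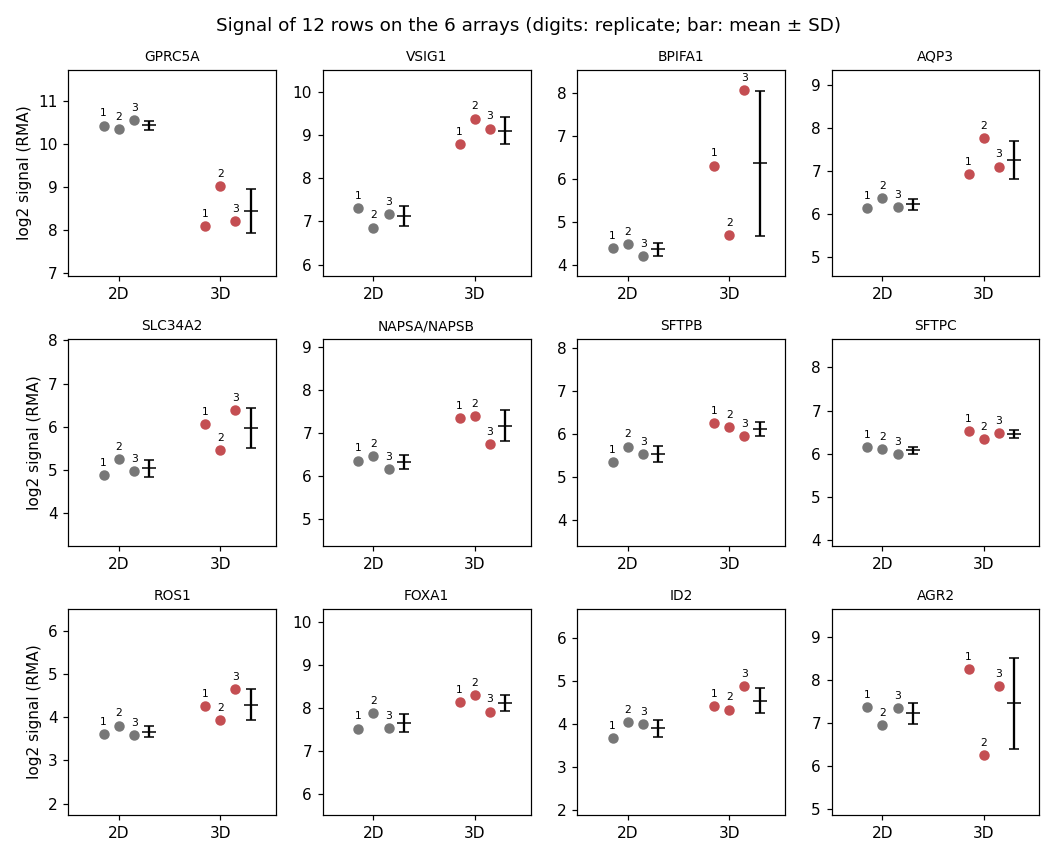
Log2 signal (RMA, y axis) of 12 rows on the arrays of 2D (grey) and 3D cultures (red), 3 of each, with digits for the replicate, bars for the mean ± SD and the same span of signal in each panel. The groups are far apart for VSIG1 and GPRC5A, while BPIFA1 in 3D runs from 4.70 to 8.07 and AGR2 from 6.26 to 8.26.

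The 12 lineage transcription factors of the list had 10 rows of their own, of which 0 passed the test. At an unadjusted p under 0.05, 2 were higher (7.17% of all rows were), and 8 lay above 0 (59.6% of all genes did), with a median difference of 0.12 beside 0.071 for all genes. NKX2-1, the factor that sets lung identity, was read only by a row shared with its neighbour SFTA3. That row had signals of 5.94, 6.04 and 6.46 in 2D and 6.16, 6.31 and 6.04 in 3D. The groups overlapped, and the difference of 0.019 had a 95% interval from -0.41 to 0.45. FOXA1, a forkhead factor that opens chromatin for lung and gut genes, had signals of 7.52, 7.89 and 7.53 in 2D and 8.14, 8.29 and 7.92 in 3D. The lowest 3D array was 0.029 above the highest 2D array, and the difference of 0.47 (SE 0.18) had an adjusted p of 0.285. Its relative FOXA2 had 6.31, 6.56 and 6.30 in 2D and 6.35, 6.90 and 6.29 in 3D, with overlapping groups and a difference of 0.12 (SE 0.20). GATA6, a zinc finger factor of the distal airway, had 7.27, 7.61 and 7.30 in 2D and 7.56, 7.86 and 7.27 in 3D, and its difference of 0.17 was within its SE of 0.20. CEBPA, which acts in the maturation of alveolar type 2 cells, had 5.90, 5.99 and 6.02 in 2D and 5.99, 6.34 and 5.96 in 3D, with only 3D replicate 2 above the 2D arrays and a difference of 0.13 (SE 0.16).

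SOX9 marks the tips of the branching lung bud and fetal distal progenitors. Its signals were 6.59, 6.62 and 6.71 in 2D and 7.05, 7.44 and 6.57 in 3D, high in 3D replicates 1 and 2 and below all 2D arrays in 3D replicate 3, and the difference was 0.38 (SE 0.23, adjusted p 0.451). ID2, an inhibitor of helix-loop-helix factors that marks the same tips in the mouse, had 3.67, 4.03 and 3.99 in 2D and 4.42, 4.33 and 4.87 in 3D. All 3D arrays were above all 2D arrays by at least 0.30, and the difference of 0.64 (SE 0.20) was the largest of the 10 factors, with an adjusted p of 0.219. A row shared by ID2 and the copy ID2B differed by -0.19 (SE 0.16). The epithelial factors ELF3 and EHF of the ETS family and KLF5 of the Krüppel-like family each showed a difference smaller than its SE. ELF3 had 5.43, 5.89 and 5.84 in 2D and 5.74, 5.59 and 5.51 in 3D and a difference of -0.11 (SE 0.18). EHF had 8.31, 8.11 and 8.26 in 2D and 7.78, 8.19 and 8.34 in 3D, with 3D replicate 1 the lowest of the 6 arrays, and a difference of -0.12 (SE 0.19). KLF5 had 8.04, 8.12 and 7.88 in 2D and 7.997, 8.37 and 7.88 in 3D and a difference of 0.067 (SE 0.18). SPDEF, the goblet cell factor, differed by 0.0016 (SE 0.19), with an interval from -0.45 to 0.45.

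The alveolar type 2 genes with a row of their own all had a higher mean in 3D (59.6% of all genes did), and none was called. A higher mean throughout was not particular to them, since all 8 fibroblast and all 6 neuroendocrine markers had one too. Of their 7 rows, 0 passed the adjusted test, 5 were higher at an unadjusted p under 0.05 (7.17% of all rows were), and for 6 the 3D arrays lay above all 2D arrays (12.7% of all rows), for SFTPD by only 0.0008. The rows of SLC34A2, SFTPB and ROS1, which had the largest differences of the 7, were dim, and the part of the upward tendency of dim rows in them was not tested. SFTPD, with a mean signal of 5.8743, was barely above the limit for dim rows (5.8738). ABCA3 had a mean of 5.93, and SFTPC one of 6.27, near the median signal of 6.26. The arrays give no detection call, so that such signals do not establish expression. The median difference of the 7 was 0.43, beside 0.071 for all genes, with a range from 0.052 to 0.94. SLC34A2, the sodium-dependent phosphate transporter of the apical membrane whose promoter is shown above, had signals of 4.88, 5.24 and 4.96 in 2D and 6.06, 5.45 and 6.38 in 3D. Replicates 1 and 3 of 3D were high and replicate 2 only 0.21 above the highest 2D array. The difference was 0.94 (SE 0.25, n = 3 per group), a 1.91-fold higher signal, with an adjusted p of 0.172. Napsin A, the protease that trims surfactant proteins B and C, was read by a row that NAPSA shares with its neighbouring copy NAPSB. The row had 6.36, 6.46 and 6.16 in 2D and 7.35, 7.41 and 6.75 in 3D, with no overlap, and differed by 0.84 (SE 0.21, adjusted p 0.151). How much of it comes from either gene cannot be told apart.

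SFTPB, the hydrophobic surfactant protein needed to spread the surface film, had signals of 5.35, 5.71 and 5.54 in 2D and 6.26, 6.16 and 5.94 in 3D. The groups did not overlap, and the difference was 0.59 (SE 0.17, adjusted p 0.195). SFTPC, the surfactant protein most specific to alveolar type 2 cells, had 6.14, 6.11 and 5.99 in 2D and 6.53, 6.35 and 6.48 in 3D, also without overlap. Its difference of 0.37 (SE 0.14) had an adjusted p of 0.294. SFTPD, a collectin that binds microbes, had 5.79, 5.72 and 5.71 in 2D and 5.79, 6.28 and 5.96 in 3D. The lowest 3D array and the highest 2D array stood level to within 0.0008, and the difference was 0.27 (SE 0.17). LPCAT1, which makes the saturated lipid of surfactant, had 8.93, 9.34 and 9.15 in 2D and 9.37, 9.76 and 9.59 in 3D, and differed by 0.43 (SE 0.18, adjusted p 0.314). The groups were 0.027 apart.

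ABCA3, the lipid pump of lamellar bodies, had 5.89, 5.98 and 5.84 in 2D and 5.98, 5.96 and 5.92 in 3D. Its difference of 0.052 (SE 0.14) was the smallest of the alveolar type 2 genes, and the groups overlapped. A row shared by CCNF, ABCA17P and ABCA3 had 6.36, 6.10 and 6.30 in 2D and 5.48, 6.03 and 5.71 in 3D, lower in each 3D array than in any 2D array, with a difference of -0.52 (SE 0.19, adjusted p 0.270). The rows naming ABCA3 thus differed in sign. ROS1, a receptor tyrosine kinase that is fused to other genes in some lung adenocarcinomas, had 3.62, 3.81 and 3.59 in 2D and 4.27, 3.94 and 4.66 in 3D. Replicate 3 of 3D was the highest and replicate 2 lay 0.13 above the 2D arrays. The difference was 0.62 (SE 0.21, adjusted p 0.244), while the row shared by ROS1 and its neighbour GOPC differed by -0.13 (SE 0.19).

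**Figure D3:**
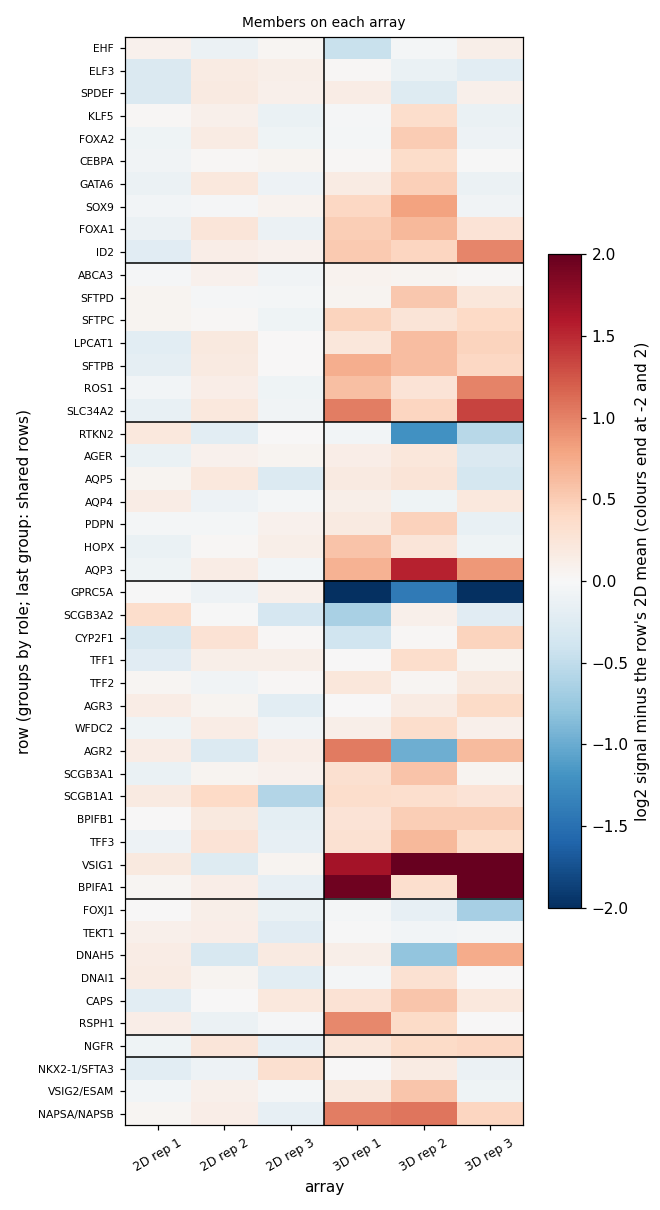
Log2 signal of each member row (y axis, grouped by role) on each of the 6 arrays (x axis) minus the mean of the row over the 2D arrays, with red for higher and blue for lower values and the colour scale ending at -2 and 2. The alveolar type 2 rows are red in most 3D cells, and the ciliated and alveolar type 1 rows show no common colour.

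Alveolar type 1 genes and aquaporins had 7 rows, of which 0 passed the test. At an unadjusted p under 0.05, 1 was higher and 0 lower, against 7.17% and 7.94% of all rows. The median difference of the 7 was 0.085, beside 0.071 for all genes. AQP3, a channel for water and glycerol that in the human lung is found mainly in airway basal cells and in type 2 cells, had signals of 6.15, 6.38 and 6.17 in 2D and 6.93, 7.77 and 7.11 in 3D. All 3D arrays were at least 0.55 above the 2D arrays, and replicate 2 was the highest. The difference of 1.03 (SE 0.23, n = 3 per group), a 2.05-fold higher signal, had an adjusted p of 0.124. AQP5, the water channel of type 1 cells and glands, had 6.44, 6.61 and 6.12 in 2D and 6.57, 6.64 and 6.04 in 3D, which overlapped, and a difference of 0.029 (SE 0.22). AQP4, a water channel of the basolateral membrane, differed by 0.085 (SE 0.16).

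HOPX, a homeodomain protein of type 1 cells, had 5.51, 5.66 and 5.75 in 2D and 6.21, 5.88 and 5.55 in 3D, with 3D replicates 1 and 2 above the 2D arrays and replicate 3 among them. The difference was 0.24 (SE 0.20). PDPN, the type 1 membrane protein podoplanin, had 4.60, 4.61 and 4.73 in 2D and 4.83, 5.11 and 4.50 in 3D, with 3D replicates 1 and 2 above and replicate 3 below the 2D arrays, and differed by 0.17 (SE 0.19). AGER, the receptor for advanced glycation end products and a standard type 1 marker, differed by 0.017 with an interval from -0.41 to 0.44. RTKN2, a rhotekin relative enriched in type 1 cells, had the lowest difference of this group at -0.61 (SE 0.29, adjusted p 0.366). Its 3D signals spread from 5.64 in replicate 2 to 6.79 in replicate 1, which lay among the 2D arrays.

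Of the 14 secretory airway and gastric-type genes with a row of their own, VSIG1 rose and GPRC5A fell, and 12 were not called. Of all rows, 0.145% were called higher and 0.236% lower. Before adjustment, 4 were higher and 1 lower with p under 0.05, against 7.17% and 7.94% of all rows. The groups did not overlap for 4 higher (28.6%) and 1 lower (7.14%), against 12.7% and 10.0%. Of the 14, 12 (85.7%) lay above 0, against 59.6% of all genes. Their median difference was 0.21, beside 0.071 for all genes. BPIFA1, an antimicrobial and surface-active protein of the upper airway, had signals of 4.40, 4.49 and 4.20 in 2D and 6.31, 4.70 and 8.07 in 3D on a dim row. The 3D arrays were far from each other, with replicate 3 at the top and replicate 2 only 0.20 above the highest 2D array. The mean difference of 1.99 was as large as that of VSIG1, but its SE was 0.72 and its adjusted p 0.270. Without 3D replicate 3 it was 1.14, and without 3D replicate 2 it was 2.83. Its neighbour in the same gene cluster, BPIFB1, was above the 2D range in all 3D arrays with a difference of 0.42 (SE 0.17, adjusted p 0.296).

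SCGB1A1, the club cell secretoglobin, had 6.18, 6.40 and 5.41 in 2D and 6.35, 6.33 and 6.27 in 3D. The 3D arrays lay within the range of the 2D arrays, of which replicate 3 was the lowest, and the difference was 0.32 (SE 0.25). SCGB3A1 had 5.73, 5.92 and 5.94 in 2D and 6.18, 6.44 and 5.92 in 3D and differed by 0.32 (SE 0.18). The third secretoglobin, SCGB3A2, differed by -0.26 (SE 0.25). AGR2, a disulfide isomerase needed for mucin folding, had 7.37, 6.96 and 7.36 in 2D and 8.26, 6.26 and 7.87 in 3D. Replicates 1 and 3 of 3D were above all 2D arrays and replicate 2 below them, so that the difference of 0.23 had an SE of 0.47, and leaving out 3D replicate 1 gave -0.17 and leaving out 3D replicate 2 gave 0.84. Its relative AGR3 differed by 0.19 (SE 0.17).

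WFDC2, the secreted protease inhibitor also called HE4, had 6.98, 7.22 and 6.99 in 2D and 7.18, 7.41 and 7.15 in 3D and a difference of 0.19 (SE 0.16). TFF1, a trefoil peptide of gastric pit cells, had 5.39, 5.74 and 5.74 in 2D and 5.63, 5.98 and 5.68 in 3D and a difference of 0.14 (SE 0.18). TFF2, the trefoil peptide of gastric neck glands, differed by 0.16 (SE 0.14). TFF3, the trefoil peptide of goblet cells, did not overlap between the groups, with a difference of 0.44 (SE 0.18, adjusted p 0.316). CYP2F1, a cytochrome of club cells, differed by 0.023 (SE 0.26). VSIG2, a relative of VSIG1, was read only by a row shared with ESAM, which differed by 0.22 (SE 0.19), with an interval from -0.23 to 0.67.

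None of the 6 ciliated cell genes passed the test, and 0 had an unadjusted p under 0.05. Of all rows, 7.17% were higher and 7.94% lower at that level. The differences of the 6 ran from -0.29 to 0.45 with a median of 0.059, beside 0.071 for all genes. FOXJ1, the factor that switches on the program of motile cilia, had signals of 6.09, 6.21 and 5.96 in 2D and 6.05, 5.92 and 5.42 in 3D. Replicates 2 and 3 of 3D lay below all 2D arrays, and the difference was -0.29 (SE 0.20, adjusted p 0.506). The axoneme genes did not share a direction. The heavy chain DNAH5 of the outer dynein arm differed by 0.026 with the widest error of the group (SE 0.37), and the intermediate chain DNAI1 differed by 0.091 (SE 0.17). TEKT1, a filament protein of the axonemal doublets, differed by -0.040 (SE 0.16). RSPH1, a radial spoke protein, differed by 0.45 (SE 0.25), and 3D replicate 1 at 5.12 stood above the others. CAPS, a calcium-binding protein of ciliated cells, was higher in each 3D array than in any 2D array, by at least 0.010, with a difference of 0.35 (SE 0.18, adjusted p 0.388). NGFR, the neurotrophin receptor of airway basal cells and the only basal gene with a row of its own, differed by 0.34 (SE 0.17, adjusted p 0.374).

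Signals spread more in 3D than in 2D for the members and for the whole table alike. The range over the 3 arrays was wider in 3D for 33 of 45 members (73.3%) and for 70.3% of all genes. Its median was 0.52 in 3D and 0.35 in 2D for the members, and 0.46 and 0.29 for all genes. The widest 3D ranges were those of BPIFA1 (3.37), AGR2 (2.00), DNAH5 (1.53) and RTKN2 (1.16), and in each of these replicate 2 was the lowest 3D array. Replicate 2 was nevertheless the highest 3D array for 22 members (48.9%, against 46.0% of all genes), among them AQP3, SOX9 and VSIG1. The median SE of a member's difference was 0.19.

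**Figure D4:**
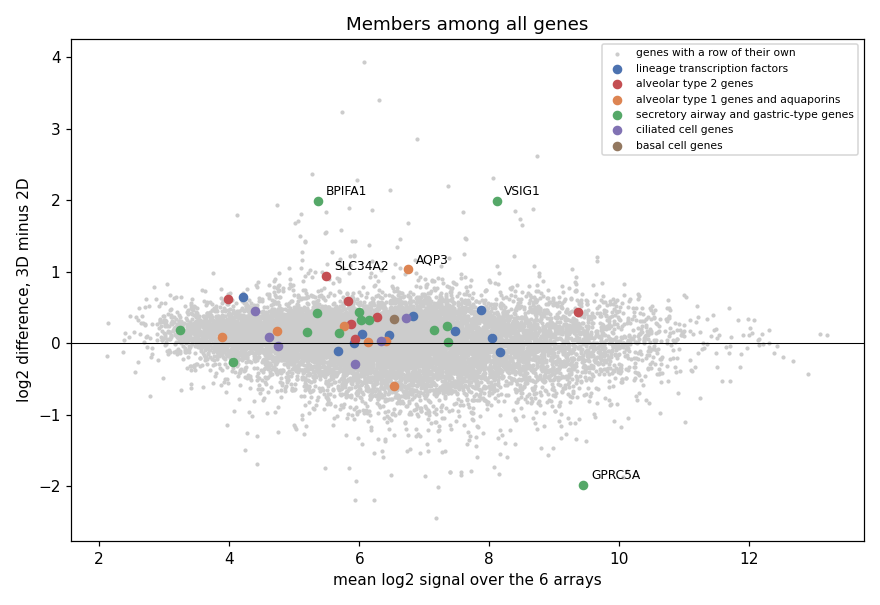
Difference of log2 signal, 3D minus 2D (y axis), against the mean log2 signal over the 6 arrays (x axis) for the 14232 genes with a row of their own (grey) and the 45 members (coloured by role). VSIG1 and BPIFA1 at 1.99, AQP3 at 1.03, SLC34A2 at 0.94 and GPRC5A at -1.99 are named, and most other members lie within 0.5 of 0.

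Further genes of the same programs that are not members were few in calls, beside 0.145% of all rows called higher and 0.236% lower. In each list more lay above 0 than below, but 59.6% of all genes and 69.0% of dim genes also lay above 0. Dim were 9 of the 32 lineage, 11 of the 20 alveolar, 11 of the 16 secretory and 13 of the 20 ciliated genes. Of 32 further lineage transcription factors with a row of their own, 0 were called, and 20 (62.5%) lay above 0, near the share of all genes (59.6%). Before adjustment, 4 were higher and 5 lower with p under 0.05, against 7.17% and 7.94% of all rows. The 3D arrays lay wholly above the 2D arrays for 7 (21.9%) and wholly below them for 5 (15.6%), against 12.7% and 10.0% of all rows. NFIB, a nuclear factor needed for the maturation of the mouse lung, had 8.70, 8.46 and 8.68 in 2D and 6.64, 6.76 and 7.64 in 3D and a difference of -1.60 (SE 0.27, adjusted p 0.0652). ID1, a relative of ID2, differed by 0.88 (SE 0.17, adjusted p 0.0951), with all 3D arrays above all 2D arrays. Of 20 further alveolar genes, 0 were called in either direction. At an unadjusted p under 0.05, 3 were higher and 3 lower, against 7.17% and 7.94% of all rows. The arrays did not overlap for 5 higher (25.0%) and 3 lower (15.0%), against 12.7% and 10.0% of all rows. Of the 20, 15 (75.0%) lay above 0, against 59.6% of all genes. LAMP3, the lamellar body membrane protein of alveolar type 2 cells, had 5.94, 5.77 and 6.00 in 2D and 7.78, 6.96 and 8.005 in 3D. Each 3D array was above each 2D array, and the difference of 1.68 (SE 0.27) had an adjusted p of 0.0607. In the opposite direction, LMO7 differed by -0.95 (SE 0.17, adjusted p 0.0695), and the surfactant-associated SFTA2, chosen after its values were seen, by -0.82 (SE 0.16, adjusted p 0.0969).

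Of 16 further secretory airway genes, 1 rose and 0 fell past the test. Above 0 lay 14 (87.5%, against 59.6% of all genes) and below it 2. TSPAN8, a tetraspanin of gut and airway epithelium, had 4.36, 4.21 and 3.74 in 2D and 8.01, 7.33 and 8.79 in 3D, a difference of 3.94 (SE 0.36) and an adjusted p of 0.0150 from limma. That p was 0.123, 0.0782 and 0.109 without 2D replicates 1, 2 and 3 and 0.0693 without 3D replicate 1. PIGR, the receptor that carries immunoglobulin A into secretions and a gene chosen after its values were seen, differed by 0.98 (SE 0.21, adjusted p 0.113), and CYP2J2 by -0.39 (SE 0.19). Of 20 further ciliated cell genes, 0 were called, and 15 (75.0%) lay above 0, against 59.6% of all genes and 69.0% of dim genes. CETN2, a centrin of basal bodies and of the centrosomes of all cells, differed by 0.85 (SE 0.18, adjusted p 0.113), and RFX3, a factor of ciliogenesis, by -0.50 (SE 0.17, adjusted p 0.256). A row shared by the dynein gene DNAH11 and CDCA7L fell by 1.40 (SE 0.20, adjusted p 0.0411), and which of them it reads cannot be told apart.

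Markers of the epithelium at large had lower means in 3D beside these genes, with EPCAM, KRT8 and CLDN7 overlapping between the groups. All 8 epithelial markers (keratins, cadherin 1, EPCAM and claudins) had a lower mean in 3D, with a median difference of -0.48, and 0 were called. For 5 of them the 3D arrays lay wholly below the 2D arrays, against 10.0% of all rows, but for CDH1 by only 0.0095 and for KRT18 by only 0.00059. Their summed linear signal was 6896 to 7367 in 2D and 4736 to 6305 in 3D. The sums for other cell types were 326 to 371 in 2D and 366 to 434 in 3D for 8 fibroblast markers, 1135 to 1292 and 1028 to 1587 for 7 leukocyte markers, and 296 to 310 and 314 to 445 for 6 endothelial markers, with 0 calls in each list. By gene, 8 of 8 fibroblast, 6 of 7 leukocyte and 4 of 6 endothelial markers had a higher mean in 3D. Their median differences were 0.21, 0.36 and 0.038. CD68 was the brightest leukocyte marker, so that it weighed most in that sum, and it differed by -0.15 (SE 0.22). The arrays give no detection call and no value of 0, so that absence of these cell types cannot be read from them. The part of these shifts in the differences of the lung genes was not tested.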

How the data were processed

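RNA of HCC827 cells in 2D and 3D was read on 6 arrays, 3 per group, assigned by sample title. The authors ran RMA from the oligo package of R on them and deposited log2 signals for 22011 rows, each a transcript cluster. Versions of these tools and the genome build are not given in the sources used here. The deposited log2 values were used without further normalization. Of the rows, 14432 carried 1 symbol, 2408 several and 5171 none, and all 45 members with a row of their own matched RefSeq by Entrez ID. Each row was fitted in limma 3.58.1 (R 4.3.3) as 3D minus 2D, 2-sided, with Benjamini-Hochberg adjustment over all rows and a threshold of 0.05. The fit was tested on simulated data. Members and gene lists were chosen with earlier results of these data known. Every member with a row of its own was named. Signals per array are given for members past the threshold, for members with a difference of at least 1 and no overlap, and for a list of lineage factors and cell type markers. From each further list up to 2 genes per direction were named. Alternatives were a filter on dim rows, an intensity trend, a robust prior, array weights, a replicate block, leaving out each array, 1 row per gene or the mean over its rows, repeated quantile normalization and thresholds of 0.01 and 0.1. Arrays have no depth, and precision is limited by their number. Promoters came from RefSeq (GRCh38.p14). Figures were drawn with matplotlib 3.10.9.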

Additional observations from a re-analysis of the deposited data

How the results depend on the processing

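With 3 arrays per group, every call rested on few arrays, and leaving out an array leaves a group of 2. Over the 6 fits that leave out 1 array, the count of members called was 0 to 1 higher and 0 to 1 lower, and the median difference of the members was 0.166 to 0.237. At an adjusted p under 0.01 limma called 0 members higher and 0 lower, against 12 and 1 at an unadjusted p under 0.05 in the fit of all arrays. With array weights it called 3 higher, VSIG1, SLC34A2 (1.12, adjusted p 0.0382) and AQP3 (0.92, adjusted p 0.0498), and the small differences of TEKT1 and of the row shared by NKX2-1 and SFTA3 turned to 0.013 and -0.057. The cause was not tested. Differences near 0 also changed sign when an array was left out. Their ranges were -0.14 to 0.13 for SPDEF, -0.085 to 0.17 for AGER, -0.19 to 0.24 for CYP2F1, -0.15 to 0.026 for TEKT1, -0.086 to 0.18 for NKX2-1 and SFTA3, -0.33 to 0.43 for DNAH5, -0.10 to 0.22 for AQP5, -0.016 to 0.17 for DNAI1, -0.24 to 0.042 for EHF, -0.17 to 0.84 for AGR2, -0.072 to 0.23 for FOXA2, -0.078 to 0.17 for KLF5 and -0.24 to 0.052 for GOPC and ROS1. Over all rows the count of calls was 84 of 22011 in the main setting, 415 with array weights, 152 of 13207 without dim rows, 185 of 14232 with 1 row per gene, 0 without any one 2D array, and 7, 150 and 145 with 3D replicates 1, 2 and 3 left out in turn. Among the genes that are not members, NFIB, LAMP3 and LMO7 passed the threshold without dim rows, with array weights and with 1 row per gene. With array weights ID1 (adjusted p 0.0400), SFTA2 (0.0441) and PIGR (0.0379) passed too, as did ID1 (0.0463) and SFTA2 (0.0493) with 1 row per gene, LAMP3 with the replicate block (0.0471) and without 3D replicate 2 (0.00878), and NFIB without 3D replicate 3 (0.0169). The replicate numbers were not taken to pair the arrays in the main fit. The deviations of same-numbered arrays correlated at 0.0892, 0.374 and 0.223. For 2D replicates 2 and 3 the same-numbered 3D array was the best match, while 2D replicate 1 correlated best with 3D replicate 3 (0.167). These values do not settle whether the numbers pair the arrays. With the replicate number as a block, the fit called 86 rows, and again 1 member higher (VSIG1, adjusted p 0.0437) and 1 lower (GPRC5A, 0.0471).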

Other observations

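Neuroendocrine markers, which a rare airway cell type and small cell lung cancers express, had a higher mean in 3D for all 6 markers with a row of their own, while 59.6% of all genes did. For 4 of them the 3D arrays lay wholly above the 2D arrays, against 12.7% of all rows, but for GRP by only 0.0034 and for CALCA by only 0.017. None of the 6 passed limma's test. SYP, the synaptic vesicle protein synaptophysin, differed by 0.73 (adjusted p 0.113), and the median of the list was 0.27. The summed linear signal of the 6 markers was 362 to 435 in 2D and 469 to 609 in 3D. A higher mean in 3D was not particular to this list. All 8 fibroblast markers (median 0.21) and 6 of 7 leukocyte markers (median 0.36) had one too.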
